A study of Rattus norvegicus with 13 samples.

Results

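The arrays compared here hold RNA from rats that were pretreated with methamphetamine (METH) and challenged with saline (MS, 4 arrays, replicates 1 to 4), set against rats that received saline both times (SS, 3 arrays, replicates 2, 3 and 4). They were chosen by their labels and make up 7 of the 13 arrays used here. All animals were male Sprague-Dawley rats aged 8 weeks. For 3 weeks they were injected intraperitoneally with saline or with increasing doses of METH, and the challenge began 72 h later according to the labels, although the injection schedule of the study lists the last pretreatment on a Monday and the challenge on the Wednesday of that week. The saline challenge was 8 injections, so the MS rats had METH in their history and the SS rats had none. The tissue, labelled SN/VTA (the substantia nigra together with the ventral tegmental area), was taken 24 h after the challenge. The other groups are SM (saline pretreatment, 3 arrays) and MM (METH pretreatment, 3 arrays), which were challenged with 8 injections of METH at 5 mg/kg. The comparison asks which transcripts differed in rats whose only METH exposure was the pretreatment. One side of each brain went to the arrays and PCR, and where RNA amplification is described the tissue is named as striatum, whereas the labels followed here give SN/VTA.

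METH is a psychostimulant that enters monoamine terminals through their plasma membrane transporters and releases dopamine, noradrenaline and serotonin from vesicles. Given as a binge it damages monoamine terminals, and earlier exposure to gradually increasing doses is known to lessen that damage, a form of preconditioning. The SN and VTA hold the cell bodies of midbrain dopamine neurons, together with GABA neurons, glia and blood vessels. Serotonin neurons of the raphe and noradrenergic neurons of the locus coeruleus lie in neighbouring parts of the brainstem.

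RNA was labelled with biotin and hybridized to Illumina RatRef-12 arrays, which carry 22523 probes. Each deposited value is a ratio to the level of the probe over the arrays, from which the signal of the probe could be recovered (median of an array 22.0 to 36.0 units over the 13 arrays). Signals below are in these units on a common scale per array. Between 26.6 and 30.5% of probes per array lie at the lower limit of the ratios, here written as 0, and no detection call is used. A gene was called when its difference reached 1.7-fold and its limma p before adjustment was under 0.05, the criterion of the study, and the p-value adjusted for all 17140 tested probes is given beside it. Signals of different genes depend on their probes and are not compared. The labels do not say that every array is a separate animal, so p-values measure the spread between these samples.

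The tissue was first checked by its monoamine markers, which differed widely between arrays of one group. Th, tyrosine hydroxylase, which starts dopamine synthesis, measured 504, 1382 and 215 units on the SS arrays (replicates 2, 3 and 4) and 955, 2727, 491 and 307 units on the MS arrays (replicates 1 to 4). The highest array was thus 12.7 times the lowest, the groups overlapped, and the difference of 0.58 on the log2 scale had a 95% interval of -1.12 to 2.28. Slc6a3, the dopamine transporter through which METH enters these neurons, measured 214, 975 and 168 units in SS and 730.3, 2120.1, 0 and 281 units in MS, in the same order of arrays. MS replicate 3 lies at the limit for Slc6a3 although its Th signal was 491 units. Slc18a2, the vesicular monoamine transporter, measured 465, 699 and 124 units in SS and 358, 577, 181 and 201 units in MS. Ddc, the second enzyme of dopamine synthesis, and the dopamine neuron factors Lmx1a and Foxa1 were listed at 0 on all 13 arrays. Aldh1a1, an aldehyde dehydrogenase of dopamine neurons, was even by contrast, at 3387 to 5118 units in SS and 4134 to 5596 units in MS.

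Markers of raphe serotonin neurons were present at high signal. Tph2, the tryptophan hydroxylase of serotonin neurons, measured 2459, 3017 and 806 units in SS and 1676, 2078, 769 and 801 units in MS. Slc6a4, the serotonin transporter, measured 1969, 2063 and 445 units in SS and 1153, 1663, 398 and 438 units in MS. Fev, the transcription factor of serotonin neurons, measured 437, 527 and 119 units in SS and 315, 484, 76.2 and 86.3 units in MS. SS replicate 4 and MS replicates 3 and 4 were low for each of these 3 genes, so 1 of 3 SS arrays and 2 of 4 MS arrays carried little of them. The serotonin list (11 tested members) had 3 members higher and 8 lower in MS, a median of -0.49 on the log2 scale (-0.16 on log2(signal + 16 units), -0.22 without SS replicate 3, -0.30 without MS replicate 4), 0 calls, and a summed signal of 3560 to 8522 units per array in SS and 3337 to 6798 units in MS. Vip, a neuropeptide, measured 161, 232 and 94.9 units in SS and 84.6, 188, 41.9 and 21.4 units in MS, and so was lowest on the same arrays within each group. Its difference of -1.31 had an interval of -2.67 to 0.05, and it was called on log2(signal + 16 units), at -1.05, and in 2 of the 7 fits that leave out 1 SS or MS array, without SS replicate 4 (-1.65) and without MS replicate 2 (-1.85).

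Noradrenergic markers stood out on 1 array. Dbh, which makes noradrenaline, measured 83.7, 72.1 and 83.1 units in SS and 55.2, 48.9, 405 and 84.5 units in MS. Slc6a2, the noradrenaline transporter, measured 44.8, 42.3 and 68.7 units in SS and 39.3, 44.9, 217 and 71.3 units in MS. Both were highest on MS replicate 3. The 7 tested members of the noradrenergic and cholinergic list all had a higher mean log2 value in MS, with a median of 0.33 and 0 calls. The rise was not shared by all MS arrays. By array the median of the members, each centred over arrays, was -0.47, -0.17, 0.54 and 0.20 on MS replicates 1 to 4 and -0.29 to -0.10 in SS. Their summed signal was 571 to 739 units per array in SS and 550 to 1408 units in MS, the highest being MS replicate 3. In tissue RNA of this kind fewer cells of a type and less RNA per cell cannot be told apart, and the part of the dissection in the differences below was not tested.

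**Figure D1:**
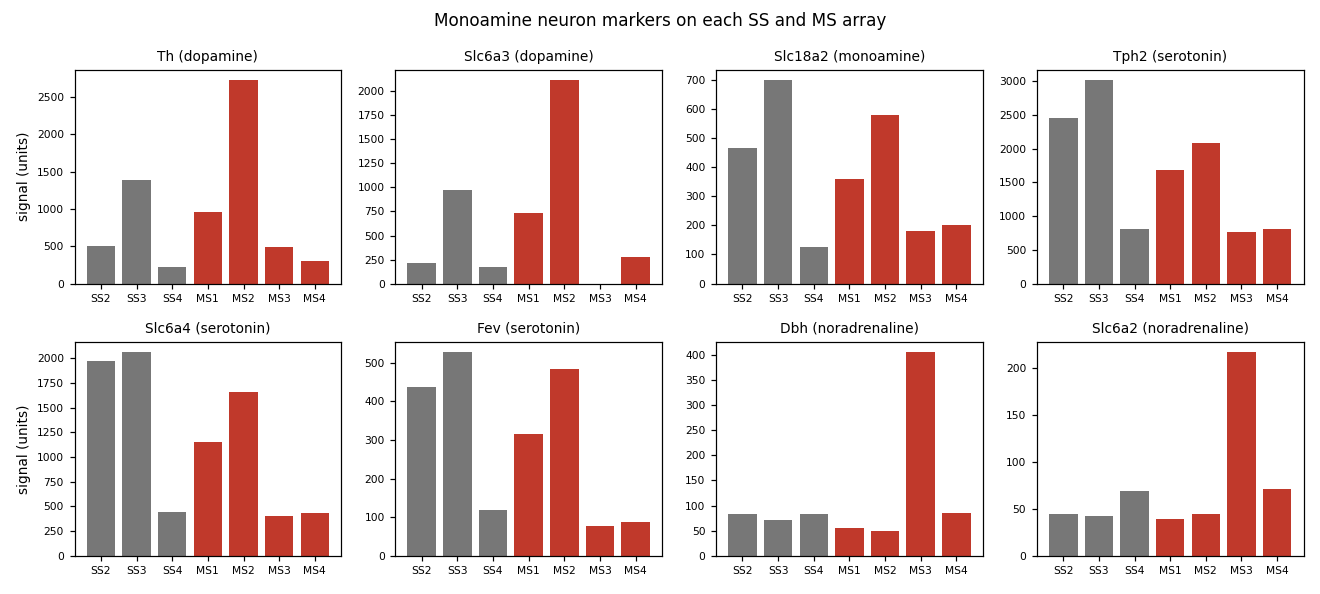
Bars give the signal in units of 8 monoamine neuron markers on each SS array (SS2, SS3, SS4) and MS array (MS1 to MS4). Th and Slc6a3 were highest on MS2 and SS3, the serotonin markers Tph2, Slc6a4 and Fev were low on SS4, MS3 and MS4, and Dbh and Slc6a2 were highest on MS3.

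Across all probes few transcripts separated MS from SS. Of 17140 tested probes 193 were called (1.13%), 95 higher in MS (0.554%) and 98 lower (0.572%), among them 122 with a gene symbol and 71 without. An unadjusted p under 0.05 was reached by 449 probes (2.62%), below the nominal share of 5%. A single probe, ILMN_1368942, which has no symbol, had a limma adjusted p under 0.05. It measured 2.88, 5.78 and 3.33 units in SS and 0 on each of the 4 MS arrays (adjusted p = 0.0431), and it was also at 0 on all 3 SM arrays and on 2 of the 3 MM arrays. This probe passed the filter through the SS arrays, where it is high, so its p-value is given as a description. On log2(signal + 16 units) its limma adjusted p was 1 and it was not called. The adjusted p is 1 for every other gene named here.

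The calls lay mostly among dim probes. The median mean signal was 7.18 units for called probes and 65.5 units for all tested probes. Of 2070 probes averaging under 5 units 4.01% were called, of 3388 probes at 10 to 32 units 1.68%, and of 2426 probes over 1000 units 0.0412%, a single probe. Over 32 units, 19 of 10645 probes were called (0.178%), 12 higher and 7 lower. The median 95% interval reached 15.7-fold to each side under 5 units and 1.22-fold at 100 to 1000 units, so 1.7-fold differences in brighter genes were within reach of these arrays and rare. On the scale of log2(signal + 16 units), which damps the spread of dim probes, 17 of 17136 probes were called (0.0992%), 7 higher and 10 lower, and 12 of them were called on both scales.

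**Figure D2:**
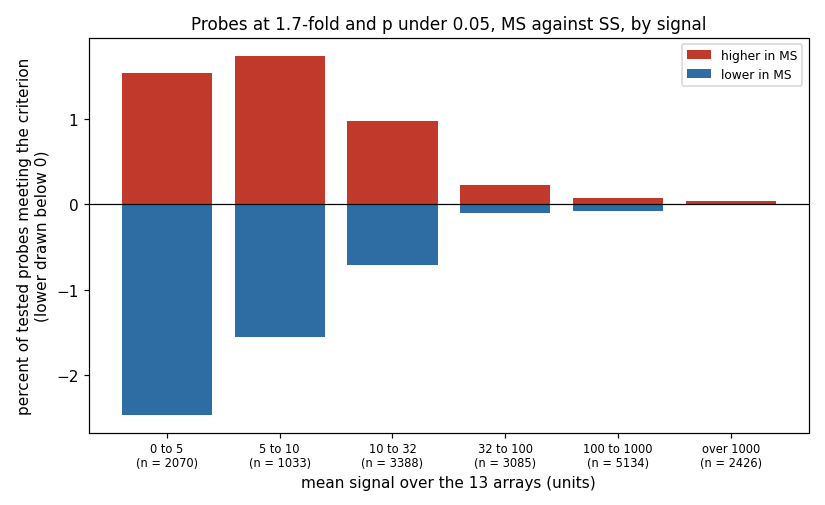
The percent of tested probes called higher in MS (above 0) and lower in MS (below 0) is drawn against the mean signal over the 13 arrays, with the number of probes per class under each bar. The called share fell from 4.01% under 5 units to 0.0412% over 1000 units.

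Among the 12 brighter probes called higher, 10 have a symbol. Lrp10, a trafficking receptor of the LDL receptor family, measured 319.5, 273 and 517 units in SS and 667, 638, 650.0 and 673 units in MS. Every MS array was above every SS array, and the 4 MS arrays lay within 16.1 units (SD) of a mean of 657 units. Lrp10 rose by 0.88 on the log2 scale (SE 0.23, limma adjusted p = 1), or by 0.69 without SS replicate 3, which is below 1.7-fold. Rnf138, a ubiquitin ligase of DNA break repair, measured 119, 126 and 153 units in SS and 234, 279, 233 and 323 units in MS. Its groups did not overlap, and it rose by 1.00 (SE 0.39). It missed the p threshold without SS replicate 2, SS replicate 3 or MS replicate 4, where the difference was 0.93, 0.97 and 0.91.

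Lamtor5, a subunit of the Ragulator complex that anchors mTORC1 signalling to lysosomes, split the MS arrays. It measured 715, 689.8 and 664 units in SS and 2428, 757, 2664 and 719 units in MS. Replicates 1 and 3 were thus far above the others, replicates 2 and 4 lay close to SS, and the called rise of 0.99 (SE 0.41) came from a pair of arrays. It was 0.72 without MS replicate 1 and 0.67 without MS replicate 3, neither past the threshold, and leaving out any 1 of the 3 SS arrays also ended the call (0.96 to 1.02). On the 6 METH-challenged arrays Lamtor5 lay between 672 and 912 units.

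Fam111a, a protease linked in human cells to DNA replication, and Atp7a, the copper pump of the secretory pathway, were uneven between arrays of a group. Fam111a measured 165, 0 and 0 units in SS and 112, 93.4, 371 and 186 units in MS, so a single SS array carried signal. Atp7a measured 7.91, 4.88 and 83.1 units in SS and 83.2, 82.4, 125 and 24.1 units in MS. For Atp7a the groups overlapped through SS replicate 4 and MS replicate 4, and it rose by 2.19 (SE 0.93). Fam111a lost its call without SS replicate 3 or 4 or MS replicate 1, 3 or 4. Atp7a lost it without SS replicate 2 or 3 or MS replicate 1, 2 or 3, with differences of 1.40 to 2.10.

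The other named genes of this group measured near 32 units, and all but Efemp1 were set in part by SS replicate 3. Pex11a, which promotes peroxisome division, measured 35.2, 9.56 and 33.6 units in SS and 50.4, 47.9, 55.0 and 50.7 units in MS. Opa1, the fusion GTPase of the inner mitochondrial membrane, measured 37.9, 8.46 and 33.4 units in SS and 45.8, 49.7, 44.9 and 43.3 units in MS. In both genes all MS arrays exceeded all SS arrays and SS replicate 3 was far below the rest. The rise was 1.18 (SE 0.41) for Pex11a and 1.06 (SE 0.46) for Opa1, and 0.57 and 0.37 without SS replicate 3, where neither passed. The call of Opa1 also ended when any 1 MS array was left out (1.02 to 1.08). Ftsj3, which acts in processing of ribosomal RNA, rose by 0.87 (SE 0.32) and was at 0.48 without that array, where it did not pass. Wdr93, a WD repeat protein, rose by 0.91 (SE 0.29), and was at 0.65 without SS replicate 3 and 0.69 without MS replicate 2, where it was not called. Without MS replicate 4 Ftsj3 also missed the p threshold, at 0.76. Efemp1, the matrix glycoprotein fibulin-3, measured 13.3, 33.6 and 13.9 units in SS and 34.6, 34.0, 46.4 and 43.3 units in MS. Its groups did not overlap, narrowly, and its rise of 1.09 (SE 0.33) was called in all 7 fits that leave out 1 SS or MS array. On log2(signal + 16 units) Efemp1 was not called, at 0.65. The same held for Pex11a (0.74), Opa1 (0.62), Wdr93 (0.58) and Ftsj3 (0.52).

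Fewer bright genes were lower, and the named ones are Mfhas1, Umps and Cyp4b1. Mfhas1, which modulates Toll-like receptor signalling, measured 635, 194 and 609.9 units in SS and 175, 151, 230.3 and 134 units in MS. SS replicate 3 lay within the MS range, while the other SS arrays were far above it, and Mfhas1 fell by 1.32 on the log2 scale (SE 0.38, limma adjusted p = 1). Umps, which completes the synthesis of uridine monophosphate, measured 181, 173 and 179 units in SS and 58.0, 57.6, 169.6 and 63.9 units in MS. MS replicate 3 stayed near the SS level and the other 3 MS arrays lay between 57.6 and 63.9 units. Umps fell by 1.19 (SE 0.40). Mfhas1 and Umps were called in all 7 fits that leave out 1 SS or MS array and on both scales. Cyp4b1, a cytochrome P450, measured 119, 78.8 and 44.2 units in SS and 49.6, 40.3, 34.4 and 50.8 units in MS. It fell by 0.79 (SE 0.30), and by 0.45 without SS replicate 2, where it did not pass. Its call also ended without SS replicate 3, MS replicate 2 or MS replicate 3, at -0.75, -0.75 and -0.68. On log2(signal + 16 units) Cyp4b1 was not called, at -0.63.

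Another 6 bright called probes have no symbol. One of them, ILMN_1354352, measured 152, 124 and 726 units in SS and 809, 715, 1475 and 1172 units in MS, a rise of 2.06 (SE 0.78). It measured 1243 to 1584 units in SM, and 127, 1179 and 1228 units in MM, so low and high arrays occurred in 2 of the 4 groups. ILMN_1374086 measured 255, 338 and 256 units in SS and 158, 105, 178 and 166 units in MS. Its groups did not overlap and it fell by 0.91 (SE 0.23).

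**Figure D3:**
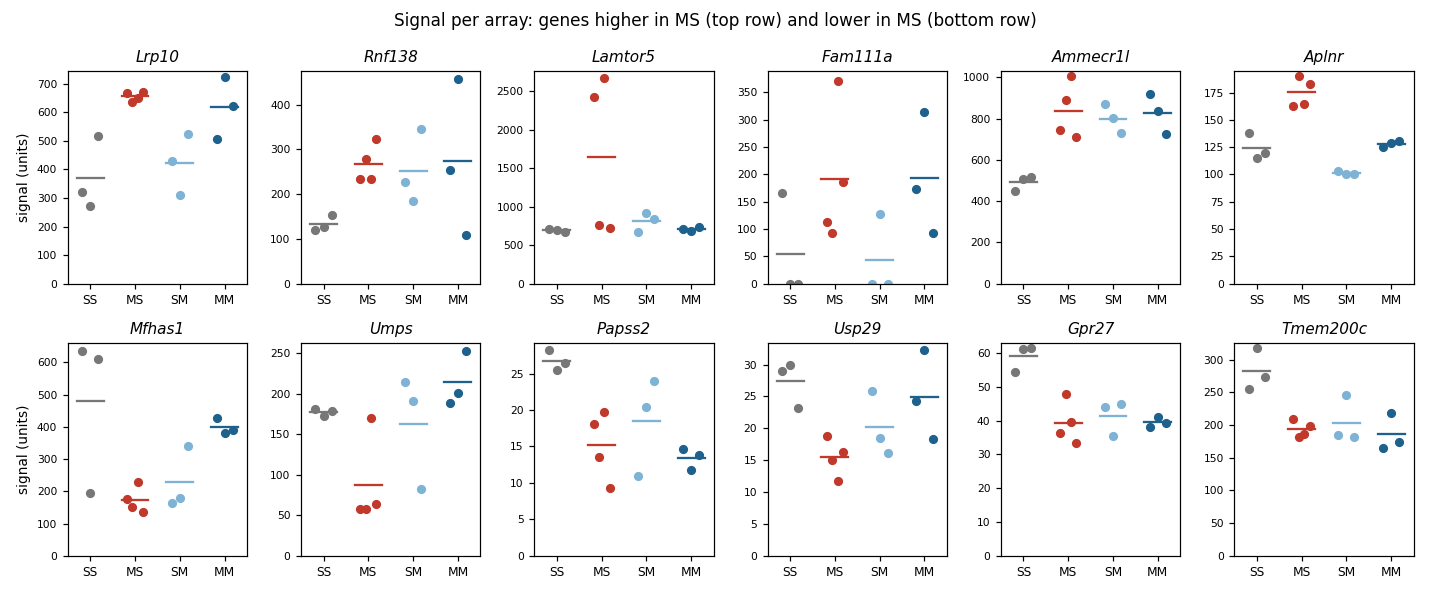
Points give the signal in units of 12 genes on every array of the 4 groups, and lines give the group means (3 arrays for SS, SM and MM, 4 for MS). Lamtor5 was high on 2 of 4 MS arrays, Umps was low on 3 of 4 MS arrays, and Ammecr1l, Aplnr, Gpr27 and Tmem200c, which stayed under 1.7-fold, show MS and SS arrays that do not overlap.

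Of the 174 called probes under 32 units, 65 were above the limit on all 7 arrays and 109 were not. Over all signals 83 called probes were above the limit on all 7 arrays, 50 higher and 33 lower, of 14575 such probes tested. Wnt6, a secreted Wnt ligand, measured 14.6, 10.2 and 5.17 units in SS and 16.3, 18.4, 27.6 and 24.0 units in MS and rose by 1.21 (SE 0.35). Golga3, a Golgi protein, measured 4.73, 2.49 and 6.75 units in SS and 16.6, 9.00, 7.48 and 16.9 units in MS and rose by 1.45 (SE 0.41). For both genes the groups did not overlap. Osgin1, an oxidative stress response gene, measured 10.8, 4.08 and 4.47 units in SS and 11.3, 32.8, 8.13 and 23.9 units in MS. MS replicate 3 lay below SS replicate 2, and Osgin1 rose by 1.50 (SE 0.49). Otor, a secreted protein of the cochlea, measured 2.16, 9.16 and 1.93 units in SS and 6.60, 19.6, 13.4 and 10.0 units in MS and rose by 1.77 (SE 0.56), also with overlap. These 4 genes were called in all 7 fits that leave out 1 SS or MS array. On log2(signal + 16 units) none of the 4 was called, with Wnt6 at 0.54, Golga3 at 0.45, Osgin1 at 0.60 and Otor at 0.47.

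Krt4, a keratin of stratified epithelia, rose by 1.08 (SE 0.32) and Ttc29, which acts in the sperm flagellum, by 0.90 (SE 0.28). Krt4 was at 0.75 without SS replicate 2 and Ttc29 at 0.56 without SS replicate 4, both under 1.7-fold. The olfactory receptor genes Or13p10 (0.87, SE 0.28) and Or52h2 (1.13, SE 0.37) rose as well, and were at 0.76 without MS replicate 4 and 0.60 without SS replicate 4.

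Among genes that fell, Usp29, a deubiquitinase, measured 29.0, 29.9 and 23.2 units in SS and 18.7, 15.1, 11.8 and 16.3 units in MS, a difference of -0.83 (SE 0.22). The zinc finger factor Zbtb6 measured 19.0, 22.6 and 23.3 units in SS and 7.66, 13.8, 4.95 and 13.8 units in MS (-1.22, SE 0.37). Papss2, which makes the sulfate donor PAPS, measured 28.3, 25.5 and 26.5 units in SS and 18.1, 13.6, 19.8 and 9.33 units in MS (-0.87, SE 0.28). In each of these genes every MS array lay below every SS array. Zbtb6 was called in all 7 fits that leave out 1 SS or MS array, but not on log2(signal + 16 units), at -0.54. Usp29 (-0.46) and Papss2 (-0.47) were not called on that scale either. Usp29 was at -0.77 without SS replicate 3 and -0.71 without MS replicate 3, and Papss2 at -0.65 without MS replicate 4, all under 1.7-fold.

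The zinc finger gene Zfp612 (-0.85, SE 0.28), N5 (-0.83, SE 0.26), Plet1, an epithelial surface protein (-0.79, SE 0.27), and the olfactory receptor Or51a39 (-0.86, SE 0.27) also fell. Each loses its call without at least 1 array: Zfp612 was at -0.62 without MS replicate 3, Or51a39 at -0.61 without MS replicate 1, Plet1 at -0.67, -0.64 and -0.66 without SS replicate 3, MS replicate 1 or MS replicate 2, and N5 at -0.70, -0.72 and -0.76 without SS replicate 4, MS replicate 1 or MS replicate 4.

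The other 110 called probes had at least 1 of the 7 arrays at the limit, 45 higher and 65 lower. For these the fitted fold depends on the floor, so the signals are given without a fold. Hells, a helicase that remodels chromatin, measured 5.45, 3.78 and 3.59 units in SS and 0 on all 4 MS arrays. Slc25a24, a mitochondrial carrier of ATP, measured 15.6, 4.48 and 1.31 units in SS and 0 on all 4 MS arrays. Sypl2, a synaptophysin relative, and Nr0b1, an orphan nuclear receptor, were likewise at 0 on all MS arrays, with 0.60 to 4.73 units and 0.51 to 6.07 units in SS. Of 17140 tested probes, 9 were called with 0 on every MS array and signal on every SS array, and 7 were the reverse. Some of these probes passed the filter only through the group where they are high, so both counts are a description. The named genes at 0 on every SS array are Acoxl, related to acyl-CoA oxidase (0.44 to 4.30 units in MS), Lrig2, a membrane protein (0.69 to 5.72 units), and the olfactory receptor Or52s20 (0.58 to 4.12 units). The means of these genes over the 13 arrays lie under 5 units, the class in which the median interval was 15.7-fold. Slc25a24, Hells, Acoxl and Lrig2 kept their call whichever of the 7 arrays was left out. On log2(signal + 16 units) none of them was called, at -0.48, -0.34, 0.21 and 0.19. Acoxl passed the filter through the MS arrays, where it is high, so its call is given as a description. Sypl2 lost its call without SS replicate 2 or 4, Nr0b1 without SS replicate 3 or any 1 MS array, and Or52s20 without any 1 array other than MS replicate 1.

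Some differences in brighter genes were smaller and did not meet the criterion. The genes in this paragraph and the next were picked after their values were seen, and each stayed under 1.7-fold. They were taken from those with the smallest limma p among genes whose groups did not overlap, so a small spread was part of the choice. Aplnr, the receptor of the peptide apelin, measured 138, 115 and 119 units in SS and 163, 191, 164 and 183 units in MS, a difference of 0.50 on the log2 scale (SE 0.10, limma adjusted p = 1). Ammecr1l, of the AMMECR1 family, measured 449.8, 509 and 519 units in SS and 743, 892, 1004 and 708 units in MS (0.75, SE 0.15). Kcnk12, a background potassium channel, was at 29.9 to 37.7 units in SS and 47.6 to 64.6 units in MS (0.75, SE 0.15). Slc38a3, a glutamine transporter of astrocytes, was at 207 to 250.2 units in SS and 273 to 307 units in MS (0.37, SE 0.10). Ephx1, the microsomal epoxide hydrolase, was at 175 to 184 units in SS and 215 to 267 units in MS (0.39, SE 0.11). Ammecr1l passed 1.7-fold in 4 of the 7 fits that leave out 1 SS or MS array and Kcnk12 in 3.

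Lower in MS by less than 1.7-fold were Gpr27, an orphan receptor of the brain (54.6, 61.1 and 61.6 units in SS, 36.4, 47.9, 39.5 and 33.5 units in MS, -0.60, SE 0.13), and the membrane protein Tmem200c (255 to 318 units in SS, 182 to 209 units in MS, -0.54, SE 0.13). Atf2, a transcription factor of the CREB family, was at 42.6 to 47.5 units in SS and 28.3 to 35.8 units in MS (-0.46, SE 0.11). Stx1a, the syntaxin of the presynaptic SNARE complex, was at 42.3 to 47.0 units in SS and 20.8 to 40.0 units in MS (-0.55, SE 0.20). Ero1a, an oxidase that forms disulfides in the endoplasmic reticulum, was at 280.1 to 318 units in SS and 145 to 262 units in MS (-0.52, SE 0.19). Over all tested probes the MS arrays all lay above the SS arrays in 274 (1.6%) and all below them in 227 (1.32%).

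Of the genes followed by quantitative PCR in the study, 12 were tested here by limma, 0 were called between MS and SS and 0 had an unadjusted p under 0.05, on either scale, and the precision differed between them. Fosl1, Fosl2 and Jund were not analysed here. Bdnf, a neurotrophin, measured 124, 119 and 135 units in SS and 129, 121, 130.3 and 121 units in MS, and the 95% interval of the difference was -0.22 to 0.21. The intervals were -0.26 to 0.28 for Jun, -0.33 to 0.24 for Junb, -0.28 to 0.15 for Sod1, -0.28 to 0.12 for Sod2, -0.13 to 0.43 for Gpx1 and -0.27 to 0.35 for Hmox1, so a 1.7-fold difference lay outside each of them. Sod1 and Sod2 are superoxide dismutases, Gpx1 reduces peroxides and Hmox1 degrades heme. Fos, an immediate early factor, measured 162, 111 and 151 units in SS and 91.1, 109, 136 and 97.5 units in MS (-0.38, interval -0.92 to 0.17). Trh, thyrotropin-releasing hormone, measured 328, 282 and 176 units in SS and 203, 259, 73.0 and 212 units in MS (-0.59, interval -1.57 to 0.39). Gdnf was listed at 0 on all 13 arrays, and Hspb2, Pip5k1c and Ptprm were at 0 on all SS arrays and on 3 of 4 MS arrays. The reference genes Actb (0.02, SE 0.10) and Gapdh (0.15, SE 0.08) were not called.

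Gene lists were then read against all 11039 tested genes, of which 57 were called higher and 55 lower, with a median log2 difference of 0.03 and 6441 higher against 4598 lower. Of 39 lists, 9 held any called member, and the counts were small. In the Wnt list (32 tested members) 2 rose, Lrp10 and Wnt6, and the median was 0.06. In the synaptic vesicle and SNARE list (30 members) none rose and 3 fell: Syngr4, synaptogyrin 4, measured 13.3, 22.5 and 20.0 units in SS and 13.4, 8.80, 8.35 and 7.17 units in MS (-0.98, SE 0.30). Syt2, a calcium sensor of release, measured 16.2, 11.3 and 13.0 units in SS and 8.25, 7.90, 9.56 and 4.71 units in MS (-0.86, SE 0.35), with no overlap. Sypl2 was described above, and the median of that list was -0.03, with 12 higher and 18 lower. The study names the same 3 genes as lower after METH pretreatment, from arrays of this series. The lists were chosen with earlier results of these data known, so the count of 3 is a description only. The call of Syt2 ended without SS replicate 2, SS replicate 4 or MS replicate 4, at -0.71, -0.88 and -0.64. In Syngr4 MS replicate 1 lay just above SS replicate 2, so its groups overlapped. On log2(signal + 16 units) Syngr4 (-0.44), Syt2 (-0.32) and Sypl2 (-0.26) were not called.

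In the MAPK and PI3K list (24 members, median -0.03) the Ras GTPase-activating protein Rasal1 and the Hippo pathway kinase Stk4 fell. Rasal1 measured 3.98 to 7.45 units in SS and 0.49, 0, 3.96 and 0 units in MS, and Stk4 6.27 to 10.2 units in SS and 1.94, 2.00, 0 and 0 units in MS. Chrm1, the M1 muscarinic receptor, fell among 13 acetylcholine receptor genes, from 1.79 to 3.59 units in SS to 1.94, 0, 0 and 0 units in MS. Rasal1 lost its call without SS replicate 4, Chrm1 without SS replicate 4 or MS replicate 2, 3 or 4, and Stk4 without any 1 SS array or MS replicate 3 or 4. Chrm1 passed the filter through the SS arrays, where it is high, so its call is given as a description. On log2(signal + 16 units) Rasal1 (-0.34), Stk4 (-0.50) and Chrm1 (-0.17) were not called. The ribosomal protein gene Rpl36a fell among 63 cytosolic ribosomal protein genes, from 9.04, 8.66 and 5.96 units in SS to 1.07, 0, 1.43 and 0.49 units in MS, while the median of that list was -0.0029. Its call ended without SS replicate 2 or 3, and on log2(signal + 16 units), at -0.51. The study reports Stk4, Chrm1 and Rpl36a as lower after METH pretreatment too, but from arrays of this series and by the same criterion.

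Of 408 tested olfactory receptor genes, expressed mainly in the nose, 5 rose and 4 fell. Among 19 DNA methylation and histone deacetylase genes Hells fell, and the median was 0.04.

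Among 29 interferon-stimulated genes 1 rose, Oas1a, an enzyme activated by double-stranded RNA. Oas1a measured 16.0, 7.07 and 23.7 units in SS and 44.4, 39.4, 35.5 and 16.5 units in MS (1.19, SE 0.46), with MS replicate 4 inside the SS range. It was at 0.71 without SS replicate 3, at 1.03 without MS replicate 1 and at 1.09 without MS replicate 2, and not called there. Irf7, the interferon regulatory factor of this response, measured 99.9, 98.7 and 109.7 units in SS and 198, 258, 99.4 and 117 units in MS, so replicates 1 and 2 were high, and its difference of 0.60 had an interval of -0.04 to 1.25. Eif2ak2, the RNA-activated kinase PKR, moved the other way, from 24.8, 27.3 and 21.0 units in SS to 16.3, 19.8, 12.2 and 12.8 units in MS (-0.69, SE 0.23), and was not called. The median of the list was 0.19, with 18 higher and 11 lower, and 0.11 on log2(signal + 16 units), 0.06 without SS replicate 2, 0.08 without SS replicate 3 and 0.06 without MS replicate 2. By array the median of the members, each centred over arrays, was 0.42 on MS replicate 2, -0.10 to -0.05 on the other MS arrays and -0.20 to 0.18 in SS.

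Blood cell genes were lower as a list, with 4 of 13 higher, 9 lower and a median of -0.26. Alas2, the erythroid enzyme of the first step of heme synthesis, measured 39.2, 31.8 and 17.2 units in SS and 15.9, 13.3, 9.78 and 17.8 units in MS. It was the 1 member called, fell by 1.00 (SE 0.32) and was at -0.75 without SS replicate 2, where it did not pass. Hbb, beta globin, measured 24739, 21966 and 20351 units in SS and 19478, 17745, 14472 and 18346 units in MS, with no overlap (-0.36, SE 0.19). Pf4, a platelet chemokine, measured 274, 237 and 366 units in SS and 245, 222, 136 and 168 units in MS (-0.61, SE 0.20). The median of the list was -0.42 without SS replicate 4, -0.41 without MS replicate 1, -0.11 without MS replicate 3 and -0.08 on the scale of signal plus 16 units. The summed signal of the list was 20967 to 25336 units per array in SS and 14809 to 20025 units in MS, and Hbb made up most of it. The part of blood left in the tissue in other differences was not tested.

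**Figure D4:**
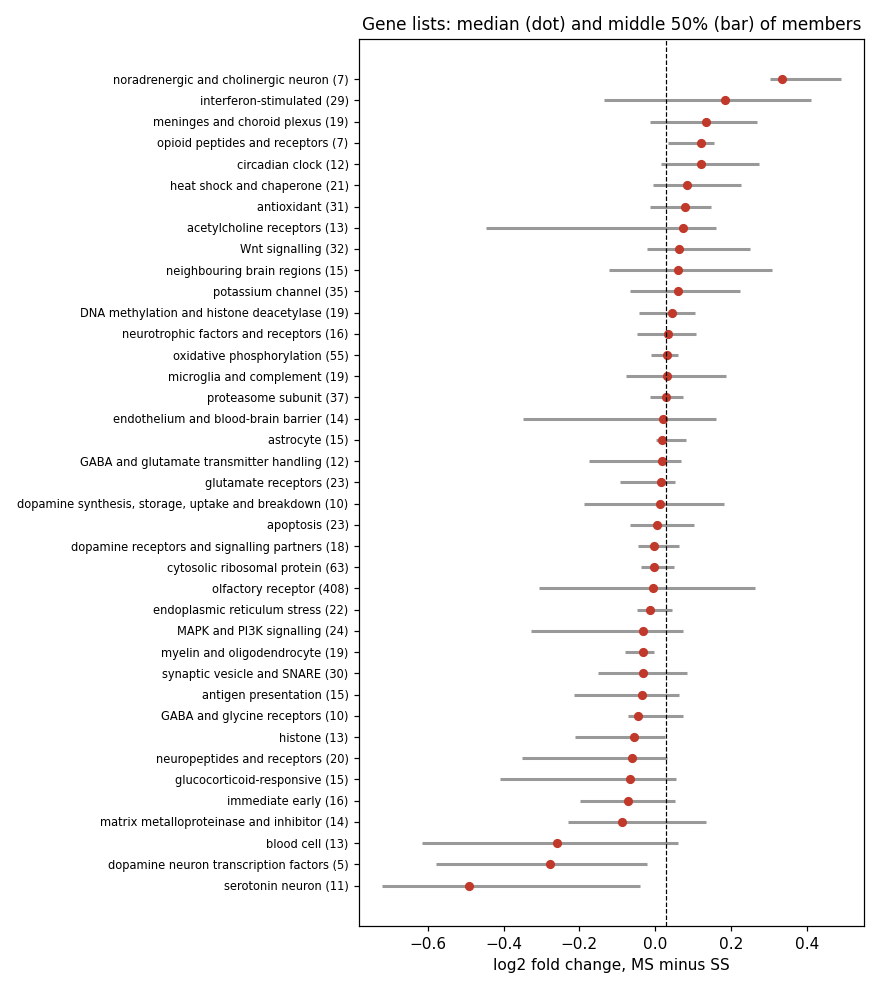
Dots give the median log2 difference, MS minus SS, of each of the 39 gene lists, bars span the middle 50% of members, the number of tested members stands in brackets, and the dashed line marks the median of all tested genes (0.03). The serotonin neuron list lies lowest, at -0.49, and the noradrenergic and cholinergic list highest, at 0.33. On log2(signal + 16 units) these medians were -0.16 and 0.31, and the list of dopamine neuron transcription factors (5 tested members) was the lowest, at -0.22. In the main fit the median of that list was -0.28, and it was 0.11 without MS replicate 3 and -0.07 without MS replicate 4. Centred medians of the noradrenergic and cholinergic list exceeded those of every SS array only on MS replicates 3 and 4.

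The remaining lists had no called member. Oxidative phosphorylation subunits (55 tested, median 0.03), proteasome subunits (37, median 0.03), antioxidant genes (31, median 0.08), heat shock and chaperone genes (21, median 0.08) and endoplasmic reticulum stress genes (22, median -0.01) stayed close to all tested genes. The same held for astrocyte (15, median 0.02), microglia (19, median 0.03) and myelin genes (19, median -0.03). Gfap, the astrocyte filament that rises in gliosis, measured 14400.0, 7098 and 6468 units in SS and 11398, 16288, 13914 and 8743 units in MS, and SS replicate 2 exceeded 3 of the 4 MS arrays. Drd2, the D2 dopamine receptor, measured 293, 322 and 260.0 units in SS and 307, 298, 283 and 242 units in MS (interval -0.34 to 0.25).

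Among 12 circadian genes Bmal1, the partner of CLOCK, measured 95.5, 102 and 83.2 units in SS and 73.0, 72.5, 75.6 and 80.8 units in MS (-0.31, SE 0.09), with no overlap and under 1.7-fold. Cry1, a repressor of CLOCK and BMAL1, measured 339, 364 and 446 units in SS and 422, 445, 476 and 494 units in MS (0.27, SE 0.11). Vegfa, the vascular growth factor, measured 75.1, 79.7 and 72.5 units in SS and 69.8, 58.0, 64.4 and 47.5 units in MS (-0.35, SE 0.14). Sgk1, a glucocorticoid-induced kinase, measured 3165, 1678 and 2475 units in SS and 1929, 1455, 1358 and 1942 units in MS (-0.52, SE 0.27).

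METH pretreatment can also be read from MM against SM, which share no array with MS and SS and differ from them by the METH challenge. Of the 17140 probes 266 were called there (1.55%), 148 higher and 118 lower. Of the 193 probes called between MS and SS, 103 (53.4%) had the same sign in MM against SM, against 50.6% of all tested probes. Among the 83 above the limit on all 7 arrays 38 (45.8%) had the same sign, and among the 19 over 32 units 8 (42.1%). Called in both were 8 probes, or 4.15% of the MS and SS calls and 3.01% of the others. Of these, 5 had the same direction, Fam111a up and Or4f61d, Krt81 and 2 probes without a symbol down. The other 3, Olr1143, Rrh and Rpl36a, went in opposite directions. The difference between the contrasts had an unadjusted p under 0.05 for 490 of all probes and for 67 of the 193, which were chosen on one of these contrasts, and a limma adjusted p under 0.05 for none (smallest 0.849).

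Fam111a measured 0, 128 and 0 units in SM and 174, 313 and 92.8 units in MM. It was thus above the limit on 7 of 7 METH-pretreated arrays and 2 of 6 saline-pretreated arrays. Atp7a measured 32.2, 6.61 and 12.1 units in SM and 114, 29.7 and 65.1 units in MM, with a difference of 2.14 that missed the threshold. Or4f61d, an olfactory receptor gene, measured 12.0, 19.2 and 10.9 units in SS and 4.17, 7.70, 8.35 and 4.52 units in MS (-1.20, SE 0.43), and 18.5, 11.6 and 17.9 units in SM and 10.2, 3.10 and 3.12 units in MM. All METH-pretreated arrays were below all saline-pretreated arrays of Or4f61d. Fam111a, Or4f61d and Krt81 are described here because they were called in the same direction in both contrasts. Their shared direction is thus part of the choice. Without SS replicate 3 the MS and SS difference of Or4f61d was -0.95 and did not pass. On log2(signal + 16 units) Or4f61d was not called, at -0.43. Krt81, a hair keratin, was at 0 on all 7 METH-pretreated arrays and at 0 to 7.86 units on the others. It lost its call between MS and SS without any 1 array other than SS replicate 2, with the doubled floor, with the replicate block and on log2(signal + 16 units).

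Lrp10 kept its direction, with 429.6, 310.4 and 525 units in SM and 508, 724 and 623 units in MM (0.57, SE 0.24), while 1 MM array lay below the highest SM array. Mfhas1 turned, from 163, 179 and 341 units in SM to 428, 382 and 391 units in MM, so that after the METH challenge all pretreated arrays were above all others. The difference of the contrasts for Mfhas1 had a limma p of 0.002 (adjusted p = 1). Umps measured 215, 191 and 83.1 units in SM and 189, 202 and 253 units in MM, and Rnf138 184 to 346 units in SM and 109 to 458 units in MM, with overlap in both.

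Arrays that did not overlap in either contrast, in the same direction, were counted over all tested probes. Of the 274 probes with all MS arrays above all SS arrays, 16 (5.84%) also had all MM arrays above all SM arrays, against 757 (4.42%) of all tested probes. Of the 227 with all MS arrays below, 12 (5.29%) also had all MM arrays below, against 796 (4.64%) of all. Both shares lie little above those of all tested probes. The genes that follow were picked for not overlapping in either contrast, so their shared direction is part of the choice. Aplnr is one of the 16: it measured 103, 100.4 and 100.3 units in SM and 126, 128 and 131 units in MM, so the pretreated arrays were higher after either challenge, by 0.50 after saline and 0.34 after METH. Cntf, the ciliary neurotrophic factor made by astrocytes, measured 602, 507 and 568 units in SS, 622, 629, 826 and 721 units in MS, 483, 516 and 433 units in SM and 603, 727 and 631 units in MM (0.32, SE 0.13 and 0.45, SE 0.14). Hdac3, a histone deacetylase, and Exosc2, of the RNA exosome, were higher in both by 0.11 to 0.24. Bmal1 was lower in both, at 63.0 to 72.5 units in SM and 59.9 to 62.4 units in MM, as were Car2, carbonic anhydrase 2, and Ctsl, cathepsin L, with differences of -0.19 to -0.14. None of these reached 1.7-fold in either contrast.

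**Figure D5:**
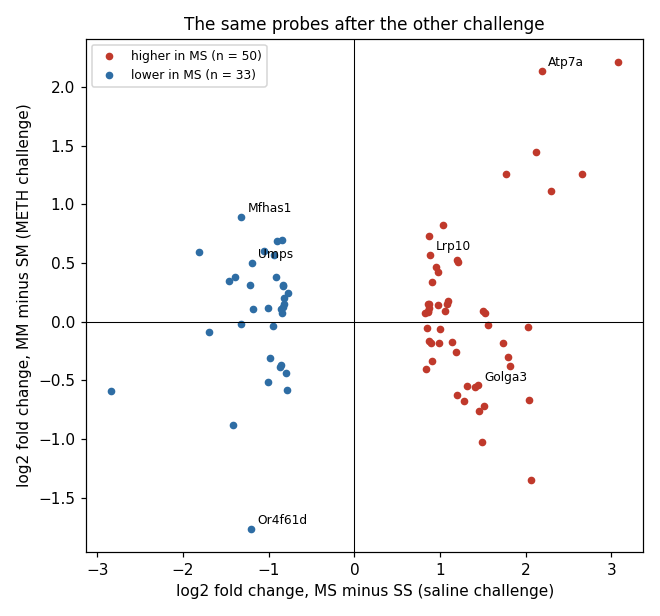
For the 83 called probes above the limit on all 7 MS and SS arrays, the log2 difference MS minus SS (horizontal) is drawn against MM minus SM (vertical), with 50 higher and 33 lower in MS. Points fall on both sides of 0 on the vertical axis, with the same sign for 38 of 83.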

How the data were processed

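Illumina RatRef-12 arrays of SN/VTA RNA were used, 7 for the main comparison and 13 in the fit. The authors read signals with BeadStudio and normalized them globally with GeneSpring. Each deposited value is a ratio of the array-scaled signal to the usual signal of its probe across arrays (10 units where that was lower), cut off below at 0.01, and replicates were not pooled. Signals in units were recovered for 22519 of 22523 probes from the steps of dim values, of which 29806 of 29806 were whole multiples within 0.02.

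Each array was scaled by its median ratio (0.770 to 0.952), values at the limit were set to a floor at the 25th percentile (0.011976), and log2 was taken. This setting of limit values was chosen after the values were seen, because after scaling the limit of 1 array exceeds the floor. Where 3 or more of the 13 arrays exceeded the floor, a probe entered the limma fit (version 3.58.1, R 4.3.3), which had a mean per group and a trended prior of 2.80 degrees of freedom, with no covariates, and p-values were adjusted by Benjamini-Hochberg. The limma fit and the calling rule were tested on simulated log2 values, with known changes placed only in the less variable probes. Signal recovery, scaling, the floor and the filter were not part of that test. The number of arrays limits the precision.

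Probes were named by the annotation of the array platform (13793 with a symbol, 13337 genes, the brightest probe per gene). The named genes are the 12 with the smallest p in each direction among calls above the limit on all 7 arrays, genes at the limit on all arrays of only 1 group, called or leading members of each list, genes followed by PCR, probes with an adjusted p under 0.05, and genes called in both pretreatment contrasts. Brighter calls, smaller shifts, SM and MM values of other genes and genes of the monoamine, interferon and blood paragraphs outside that rule were chosen after their values were seen. The members and lists were chosen with earlier results of these data known, and some list members had first been seen in tables of the study.

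Alternatives changed the scaling, the floor, the filter, the variance model, the arrays in the fit and the pairing. Residuals of MS and SS arrays with the same replicate number had correlations of 0.195, 0.0638 and 0.265 (numbers 2, 3 and 4), and the main fit does not pair them.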

Additional observations from a re-analysis of the deposited data

Results flagged for a closer look

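A single MS array stood apart from the other 3 for 11 of 99 genes and probes named here that varied among the MS arrays, by the gap to its nearest neighbour as a share of the range of the group. Chance flags about 1 in 20 groups, and 5 of the 11 were at 0 on the other MS arrays, where any signal on 1 array is flagged. Umps measured 169.6 units on MS replicate 3 and 57.6 to 63.9 units on the others. Dbh measured 405 units on MS replicate 3 and 48.9 to 84.5 units on the others. Hdac3 measured 421 units on MS replicate 2 and 383 to 388 units on the others. N5 measured 29.7 units on MS replicate 2 and 14.7 to 16.5 units on the others. Or51a39 measured 9.22 units on MS replicate 1, below 17.5 to 18.8 units on the others.

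The other 6 genes were at or near 0 on 3 MS arrays. Rasal1 measured 3.96 units on MS replicate 3 and at most 0.485 units elsewhere in the group. Olr1143 measured 2.75 units on MS replicate 3, Hspb2 3.10 units and Pip5k1c 1.20 units on MS replicate 2, and Chrm1 1.94 units and Ptprm 1.55 units on MS replicate 1, each against 0 on the other MS arrays.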

How the results depend on the processing

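Precision was limited by signal: the median 95% interval was 2.65-fold for dimmer and 1.24-fold for brighter probes, split at 32 units. The 193 calls became 17 on log2(signal + 16 units), 81 and 79 when the test was restricted to probes above the limit on each of the 13 or the 7 arrays, 330 with array weights, and 226 to 282 with 1 SS or MS array left out (the highest without SS replicate 4), of which 100 to 136 were among the 193. Under the other planned settings the count was 158 to 253. The replicate block gave 253 calls, 158 of them shared with the 193, at a smallest limma adjusted p of 0.312, and 20 calls on log2(signal + 16 units), a combination added after seeing the data. Arrays of 1 number are not known to share more than their number. Also added then, scaling on probes over 32 units gave 200 calls and a block on array numbers 1 and 2 against 3 and 4 gave 245. The share of calls that were higher was 49.2%, and 69.1% without SS replicate 2, 59.7% without SS replicate 3, 59.5% under the restriction to the 7 arrays, and 40.1% without MS replicate 2. Probes with an adjusted p under 0.05 numbered 0 to 3.

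The 266 calls of MM against SM became 51 on log2(signal + 16 units), 126 and 154 under those restrictions, 485 with array weights, 57 with that scale and the replicate block, and 269 to 405 with 1 SM or MM array left out, the highest without SM replicate 1. Of 3492 log2 differences of named genes and probes over 23 settings, 0 changed sign while called, 3247 kept their side of the threshold, 204 lost it and 41 gained it. Of 897 list medians 15 moved by more than the spread between arrays, in 6 lists. The cause of these changes was not tested.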

Other observations

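Genes of other classes that differed between MS and SS without meeting the criterion are given here as values, chosen after they were seen. Adgre1, the macrophage antigen F4/80, measured 24.2, 22.3 and 17.7 units in SS and 8.25, 16.6, 10.8 and 17.3 units in MS, with no overlap (-0.75, SE 0.28), whereas the fractalkine receptor Cx3cr1 of microglia measured 40.9, 37.6 and 52.1 units in SS and 49.4, 48.0, 53.8 and 58.4 units in MS (0.28, SE 0.15). Casp6, an executioner caspase, measured 80.3, 80.7 and 66.6 units in SS and 47.2 to 69.6 units in MS (-0.40, SE 0.16). Hspb8, a small heat shock protein, measured 565, 378 and 373 units in SS and 538, 593, 581 and 519 units in MS (0.37, SE 0.17), with SS replicate 2 inside the MS range. Igfbp2, an IGF-binding protein of meninges and choroid plexus, measured 847, 649.8 and 871 units in SS and 1063, 871, 922 and 1004 units in MS (0.30, SE 0.13). Derl3, of endoplasmic reticulum-associated degradation, measured 34.7, 46.9 and 34.3 units in SS and 57.2, 57.4, 65.1 and 34.3 units in MS (0.45, SE 0.21).

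The mean of the 3 SM arrays, which had no METH pretreatment, was nearer to MS than to SS on the log2 scale for 55 (66.3%) of the 83 called probes that exceeded the limit on each of the 7 arrays. The same held for the mean of the 3 MM arrays, also for 55 (66.3%). Over all tested probes the shares were 51.9% and 52.5%. The 83 probes were chosen on the difference between MS and SS, and SS enters both counts, so nothing is drawn from these shares.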
